A study of Mus musculus with 7 samples.

Results

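The bone morphogenetic protein (Bmp) and transforming growth factor beta (Tgf-beta) pathway was followed through 7 populations of cells sorted from mouse embryos. Its genes were chosen by name, as 52 listed ligands, receptors, Smad proteins, target genes and secreted or membrane inhibitors, and all 52 were found among the 27113 named genes of the array, on 71 probes. All embryos were of strain C57BL6J and carried an Osr1-GFP knock-in, so the GFP-negative cells carried the allele as well. The green fluorescent protein (GFP) reports on Osr1, which encodes a zinc finger protein of intermediate and lateral plate mesoderm. At embryonic day (E) 8.5, the embryo was sorted into cells with and without GFP. At E9.5, the caudal part of the embryo gave gated cells (GFP-positive, with integrin Itga8 and without the receptor Pdgfra on the surface), the remaining GFP-positive cells, called non-gated here, and GFP-negative cells. Gated and non-gated cells of E11.5 came from the metanephric mesenchyme, which forms nephrons and renal stroma. The gate was meant to enrich nephron progenitors, and non-gated cells are defined only as GFP-positive cells outside it, so they may hold several cell types. How many embryos were pooled for a sample is not given in the sources used here.

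Ligands of this family bind pairs of type I and type II serine-threonine kinase receptors on the cell surface. Bmp ligands then act mainly through Smad1, Smad5 and Smad9, and Tgf-beta, activin and Nodal ligands through Smad2 and Smad3, each with the shared partner Smad4. Smad6 and Smad7 feed back as inhibitors inside the cell, while Noggin, Chordin, Gremlin and Follistatin hold ligands in the extracellular space. The Id genes and Msx2 are well known transcriptional targets of Bmp signals. In the developing kidney, Bmp7 helps to keep nephron progenitors alive, and Gremlin 1 (Grem1) restrains Bmp4 so that the ureteric bud can grow out.

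The promoters of 4 of the 5 target genes are shown, and no RefSeq promoter was matched for Id1. Id1, Id2, Id3 and Msx2 stood higher together in the GFP-positive cells of E8.5, while Id4 followed another course. Each line holds the 250 bases before the RefSeq start of the gene, 5′ to 3′ on the strand of the gene, in build GRCm38.p6. Capitals mark matches on either strand to GGCGCC, a GC-rich motif of Bmp-responsive Smads, or to the Smad binding element GTCTG, which reads as CAGAC on the opposite strand, and these motifs did not overlap. Id2 lies at chr12:25096093-25096342 on the minus strand, Id3 at chr4:136143572-136143821 on the plus strand, Id4 at chr13:48260866-48261115 on the plus strand and Msx2 at chr13:53472781-53473030 on the minus strand.
Id2: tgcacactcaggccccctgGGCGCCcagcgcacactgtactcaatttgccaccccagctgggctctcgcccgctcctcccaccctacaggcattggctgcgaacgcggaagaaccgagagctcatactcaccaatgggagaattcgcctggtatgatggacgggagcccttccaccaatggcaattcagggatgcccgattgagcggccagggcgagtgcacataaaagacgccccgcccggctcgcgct
Id3: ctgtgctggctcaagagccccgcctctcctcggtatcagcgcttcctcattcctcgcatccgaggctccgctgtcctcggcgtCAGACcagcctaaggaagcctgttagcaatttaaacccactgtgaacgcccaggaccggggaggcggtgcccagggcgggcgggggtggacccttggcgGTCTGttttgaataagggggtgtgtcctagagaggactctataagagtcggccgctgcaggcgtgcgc
Id4: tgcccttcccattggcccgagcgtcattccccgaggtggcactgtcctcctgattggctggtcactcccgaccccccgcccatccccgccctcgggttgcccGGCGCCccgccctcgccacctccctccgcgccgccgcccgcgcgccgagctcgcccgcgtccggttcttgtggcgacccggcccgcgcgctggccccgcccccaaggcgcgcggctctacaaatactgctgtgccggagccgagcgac
Msx2: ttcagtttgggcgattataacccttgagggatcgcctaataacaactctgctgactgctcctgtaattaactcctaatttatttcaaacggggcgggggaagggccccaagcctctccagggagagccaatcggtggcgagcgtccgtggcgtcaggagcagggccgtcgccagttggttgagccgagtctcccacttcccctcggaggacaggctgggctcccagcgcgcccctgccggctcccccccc
Id2 held GGCGCC 231 bases before its start and Id4 held it 148 bases before its start. Id3 held the Smad binding element 167 and 68 bases before its start. Neither motif stood in this window of Msx2. GGCGCC was present in 9.59% of 32851 promoter windows of this length and GTCTG in 42.2%, so a match is a description and not evidence of binding. RefSeq promoters were matched for 34 of the 52 genes, with 39 windows, of which 9 held GGCGCC and 14 held GTCTG.

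Each population had 1 array, so there was no replicate, no spread between embryos or sorts could be estimated and no test was run. A level is the log2 processed signal minus that of the 75th percentile of the array, and levels are compared for a gene across arrays, never between genes. Levels are always listed as GFP-positive and GFP-negative at E8.5, gated, non-gated and GFP-negative at E9.5, then gated and non-gated at E11.5. A fold reads "at least" where the dimmer array did not stand well above background, in which case its level was taken as the gene's own or as the lowest level well above background on that array, whichever was higher. Probes spotted 10 times had a median spot standard deviation of 0.13 within an array, or 0.18 for a difference, and this holds noise between spots only. Bulk RNA cannot tell fewer cells of a type from less RNA per cell.

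The arrays followed the sort. Osr1 was not well above background on either GFP-negative array, Itga8 was at 2.15 in gated against 0.20 in non-gated cells at E9.5 and at 2.82 against -1.31 at E11.5, and Pdgfra was at -0.52 against 3.44 and at -5.92 (not above background) against 4.04. The 10 nephron progenitor markers, Itga8 among them, had median levels of 3.79 in gated and -0.77 in non-gated cells of E11.5, and 2.24 and 0.89 at E9.5. Spots well above background made up 56.2% on the GFP-negative array of E8.5, 84.1% on the non-gated array of E9.5 and between 70.3% and 74.0% on the remaining arrays. Slide 2 held the E9.5 arrays of gated and of GFP-negative cells and slide 1 all others, so for gated against non-gated cells of E9.5 the slide cannot be told apart from the population. The same holds for the non-gated against the GFP-negative cells of E9.5 and for the gated cells across stages. Scaling moved the balance of 2-fold calls over all genes. The share of these calls that was higher in the first population was 53.6% at E8.5 and 63.7% without scaling, and 35.4% for gated against non-gated cells of E9.5 and 53.1% with quantile normalization. It was 46.9% for gated against GFP-negative cells of E9.5 and 30.7% without scaling, and 62.4% for the non-gated against GFP-negative cells of E9.5 and 41.7% without scaling. For the gate at E11.5 it was 52.7% and 35.3% without scaling. Across stages it was 33.8% for gated cells and 46.6% with quantile normalization, and 22.3% for non-gated cells and 53.9% with quantile normalization. The median difference over all genes in that last comparison was -0.36, and -0.04 with quantile normalization.

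Of the 52 genes, 38 were well above background on all 7 arrays and 2, Inhba (a chain of activin A) and Bambi (a decoy receptor), on none. Of the 27113 named genes, 15444 were well above background on all 7 arrays and 2626 on none. Tgfb1 was above background only in non-gated cells of E9.5 and Gdf10 only in GFP-negative cells of E9.5. Among the 50 genes above background on at least 1 array, 22 had their highest and lowest arrays at least 4-fold apart. That is 22 of 52 pathway genes, against 8485 of the 27113 named genes. Of these 22, 8 were highest in the non-gated cells of E11.5, or 36.4%, against 15.9% of the 8485 genes of the array chosen in the same way. None of the 22 was highest in the gated cells of E9.5, against 11.8% of the 8485.

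**Figure D1:**
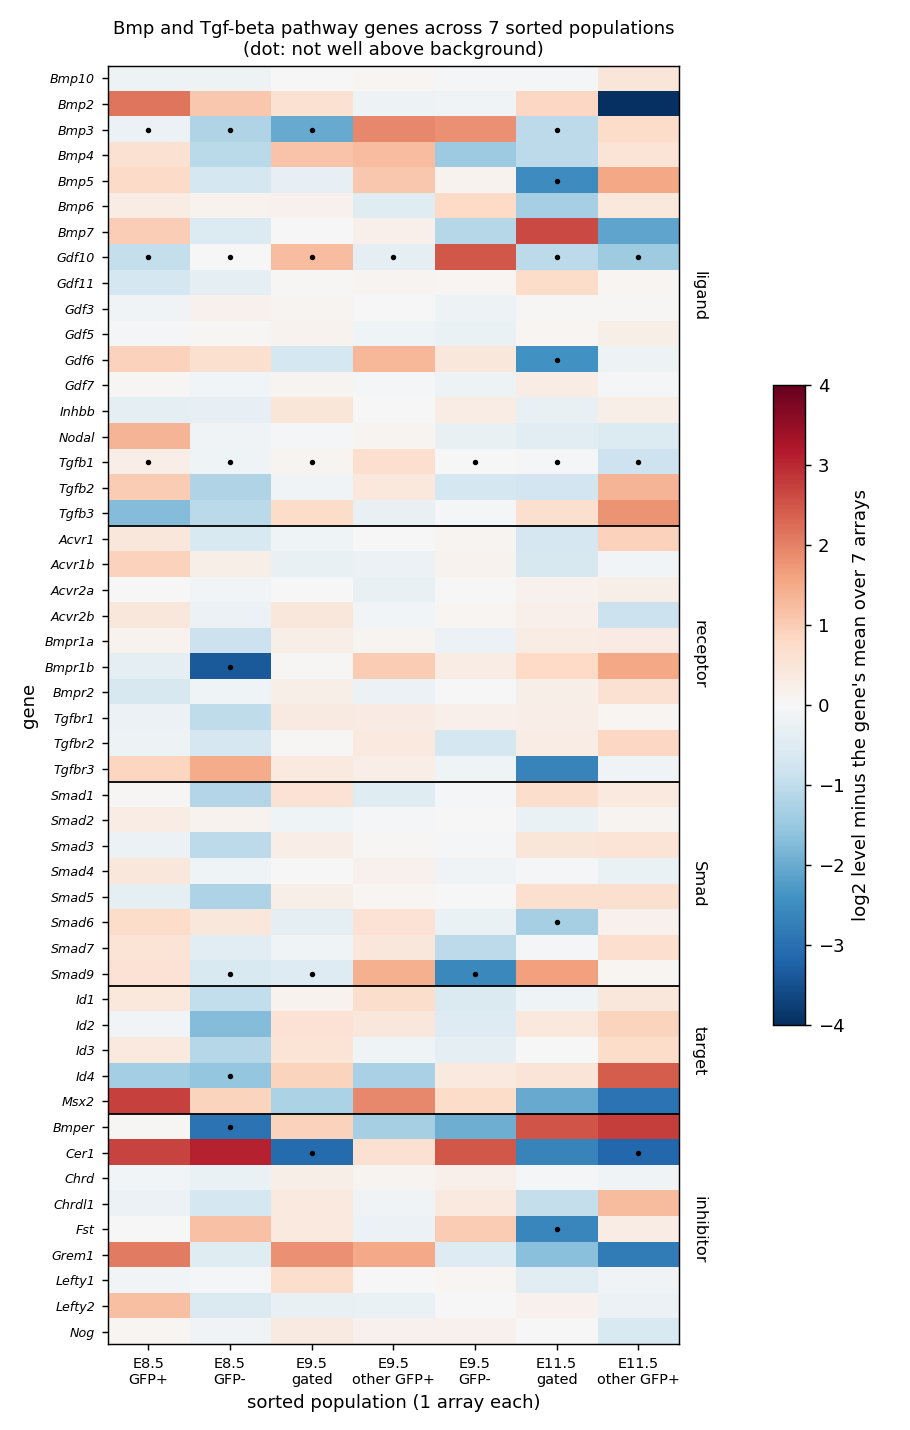
Heat map of 50 pathway genes (rows, grouped by role) on the 7 arrays (columns), coloured by log2 level minus the mean of the gene over the 7 arrays, with a dot where the gene was not well above background. Most receptors and Smads stay pale across arrays, while Bmp2, Bmp7, Msx2, Bmper, Cer1 and Grem1 show the strongest colours (non-gated cells are the columns named other GFP+).

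At E8.5, pathway genes stood higher in GFP-positive than in GFP-negative cells in 16 of 47 measured cases (34.0%), against 7.03% of all genes. Only Fst, which encodes Follistatin, stood lower by 2-fold or more (by 2.21-fold), against 6.08% of all genes. The higher genes were spread over the roles: 6 of 15 ligands, 2 of 10 receptors, 1 of 8 Smads, 4 of 5 targets and 3 of 9 inhibitors. The median difference was 0.65 on the log2 scale, and 0.05 over all genes. Among the higher ligands, Bmp4 stood 3.18-fold, Bmp7 2.9-fold, Nodal 2.86-fold and Bmp5 2.77-fold above the GFP-negative cells. Beside these values, the GFP-negative array had the fewest spots above background, and all 8 red blood cell markers were above background on it, with a median level of 7.40 against -1.71 in GFP-positive cells. Some other marker lists stood higher in GFP-positive cells: 5 of 8 measured heart markers by at least 2-fold (median difference 1.81), 5 of 9 of nephron progenitors, 5 of 11 of renal stroma and 4 of 10 of endothelium, with none lower. Others stood lower: 3 of 6 of node and notochord (median -1.55), 2 of 7 of neural tube and 2 of 7 of surface ectoderm, with none higher. Of 7 dissociation response genes, 3 were lower and 1 higher. The part of these cells and genes in the result was not tested. At 4-fold, 4 genes were higher (against 0.891% of all genes) and 0 lower (against 2.43% of all genes).

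At E9.5, the shares of pathway genes that differed between gated and non-gated cells were near those of all genes at 2-fold, not at 4-fold. Among 49 measured genes, 4 stood at least 2-fold higher in the gate (8.16%, against 5.14% of all genes) and 6 lower (12.2%, against 9.37% of all genes), so both shares lay near those of the array. Id4, Bmper, Smad1 and Tgfb3 were the higher ones, and Cer1, Msx2, Bmp3, Gdf6, Smad9 and Bmp5 the lower ones. No receptor reached 2-fold. At 4-fold, 2 of 49 genes were higher (against 0.839% of all genes) and 4 of 49 lower (against 1.19% of all genes). Both of these shares lay above those of the array, on few genes. Over genes above background on both arrays, 3 of 45 were lower in place of 6, since Cer1, Bmp3 and Smad9 were not above background in the gate. Of all genes so filtered, 978 of 19731 were lower. With normexp background correction, which compresses differences of dim spots, 2 were higher and 2 lower. Of 23599 genes of the array, 339 were higher and 316 lower in that setting. Beside these values, 8 of 12 stromal markers were lower in the gate and 0 higher, the lower ones including Pdgfra, on which the cells were sorted. Of 10 nephron progenitor markers, 7 were higher, including Itga8, also used in the sort. The other way went 2 of the 10, Hoxd11 by 9.62-fold and Cited1 by 2.42-fold. Other lists differed as well: 5 of 8 red blood cell markers were lower and 1 higher (median difference -1.61). Of 5 measured node and notochord markers 3 were lower and 0 higher, and of 8 gut endoderm markers 5 were lower and 1 higher. Of 10 endothelial markers, 5 were higher and 1 lower. The part of such cells was not tested.

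The GFP-negative cells of E9.5 served both GFP-positive populations as the comparison, so the 2 sets of values share an array and are set side by side only. Against them, 5 of 48 genes were higher in gated cells (10.4%, against 5.67% of all genes) and 5 lower (10.4%, against 6.41% of all genes). Without scaling 3 were higher and 5 lower, against 834 and 1884 of 21481 genes of the array. At 4-fold the gated cells had 3 genes higher (against 1.18% of all genes) and 2 lower (against 1.87% of all genes). Non-gated cells had 9 of 50 genes higher (against 8.57% of all genes) and 5 lower (against 5.17% of all genes), and at 4-fold 2 higher (against 0.797% of all genes) and 0 lower (against 1.26% of all genes). Bmp4, Bmp7 and Grem1 were higher on both GFP-positive arrays, Bmp4 by 6.04-fold in gated and 6.49-fold in non-gated cells, and Grem1 by 5.09-fold and 4.13-fold. Beside these values, all 8 red blood cell markers were lower in gated and in non-gated cells (median differences -7.57 and -6.7). Of 8 neural tube markers, 6 were lower in each, with 1 higher in gated and 0 in non-gated cells. Of 6 paraxial mesoderm markers, 5 and 4 were lower and 0 higher. Of 10 endothelial markers, 6 and 2 were higher and 0 lower. The part of such cells was not tested.

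At E11.5, a larger share of pathway genes than of all genes stood lower in the gated than in the non-gated cells of the metanephric mesenchyme. The share that stood higher was near that of all genes, and 30 of 48 lay within 2-fold. Of 48 measured genes, 13 were at least 2-fold lower in the gate (27.1%, against 9.42% of all genes), and 5 were higher (10.4%, against 10.5% of all genes). The median was -0.34, and 0.15 over all genes. At 4-fold, 2 were higher (against 2.15% of all genes) and 6 lower (against 3.24% of all genes). Bmp2 and Bmp7 stood far higher in gated cells, while 7 other ligands, 2 receptors, Smad6, Id4, Chrdl1 and Fst stood lower. With quantile normalization, without scaling or with the percentile taken over spots above background on all arrays (a setting chosen after the data were examined), 3 genes were higher in place of 5, because Grem1 and Acvr2b, at 1.12 and 1.08 on the log2 scale, lay near 2-fold. Of 21699 genes of the array, 1688, 1488 and 1665 were higher under these settings, in that order. Over genes above background on both arrays 8 of 42 were lower, against 1349 of 18993 genes of the array. Beside these values, all 12 stromal markers were above background in the other cells and 8 of 12 in the gate, with median levels of 2.77 and -1.58. Pdgfra is on this list and was not above background in the gate, which was sorted for its absence. The 8 dissociation response genes had median levels of 1.17 in the gate and 2.64 in the other cells, and their part in the result was not tested.

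**Figure D2:**
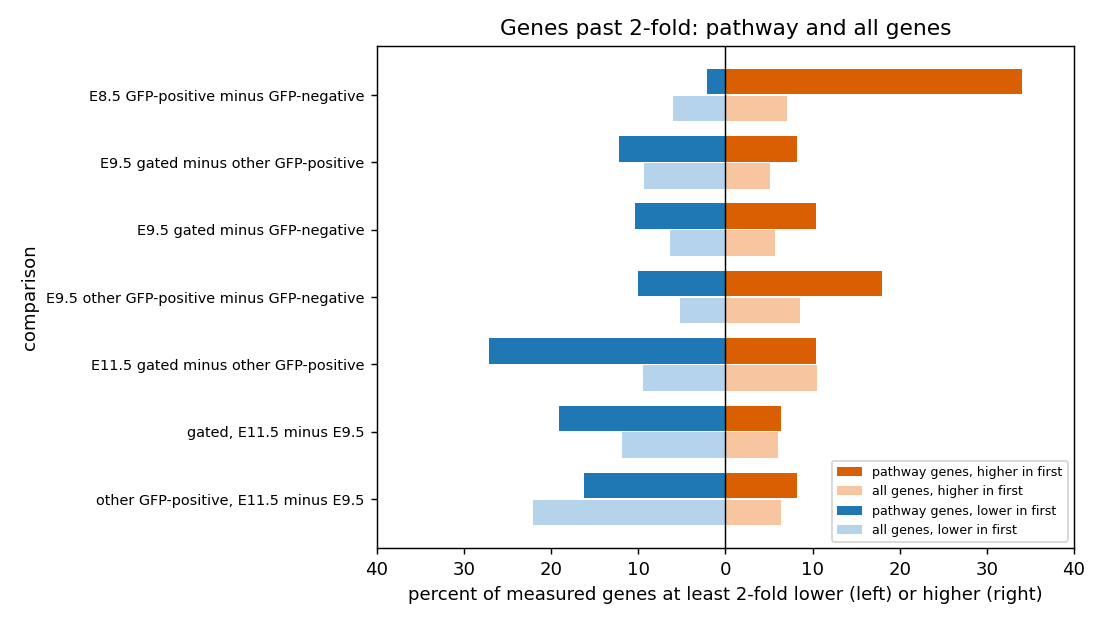
Percent of measured genes at least 2-fold lower (left) or higher (right) in the first population of each of 7 comparisons, for the pathway (dark bars) and for all genes of the array (pale bars). The pathway bar is longest on the higher side at E8.5 (34.0% against 7.03%) and on the lower side for the gate at E11.5 (27.1% against 9.42%).

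Among the ligands, Bmp2 and Bmp7 marked the gate at E11.5. Bmp2, a ligand with roles in heart and limb, is read by a probe on chromosome 2 from 133388260 to 133388319, plus strand, in mm9, the build of the array. Its levels were 2.64 and 1.57 at E8.5, 1.12, 0.30 and 0.37 at E9.5, and 1.34 and -3.82 at E11.5. It was above background everywhere, lay between 0.30 and 2.64 on 6 arrays and was low only in the non-gated cells of E11.5, where it was 35.8-fold below the gate. Bmp7, the survival factor of nephron progenitors, is read on chromosome 2 from 172695203 to 172695262, minus strand. Its levels were -0.83 and -2.36 at E8.5, -1.80, -1.61 and -2.93 at E9.5, and 0.83 and -3.90 at E11.5. It was highest in the gated cells of E11.5 and lowest in the non-gated cells of that stage, a 26.6-fold difference, whereas at E9.5 gated minus non-gated was -0.19 on the log2 scale. At E8.5 and E9.5 Bmp7 was higher in GFP-positive than in GFP-negative cells, by 2.9-fold at E8.5, 2.2-fold in the E9.5 gate and 2.5-fold in non-gated cells of E9.5.

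Bmp4, which mesenchyme around the nephric duct produces, followed GFP until E9.5 and the non-gated cells afterwards. Its levels were 3.61 and 1.94 at E8.5, 4.16, 4.26 and 1.57 at E9.5, and 1.98 and 3.57 at E11.5, from a probe on chromosome 14 from 47003391 to 47003450, minus strand. The 4 highest arrays were GFP-positive ones, and the gated cells of E11.5 lay with the GFP-negative cells, 2.99-fold below the non-gated cells. A dimmer probe of Bmp4, not above background in the lower population of each pair and so giving lower bounds of size, had differences of the same sign: 0.35 where the brighter one gave 1.67 at E8.5, 1.58 against 2.59 for the E9.5 gate over GFP-negative cells, and -2.22 against -1.58 for the gate at E11.5.

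Bmp5, Gdf6 and Bmp3 were lower in the gate at both stages. The levels of Bmp5, a ligand of mesenchyme and cartilage, were -1.38 and -2.85 at E8.5, -2.47, -1.05 and -1.99 at E9.5, and -4.64 and -0.59 at E11.5. They were not well above background in the gated cells of E11.5, which gives a difference of at least 16.6-fold, against 2.67-fold at E9.5. Those of Gdf6, a growth and differentiation factor of joints and eyes, were -1.94 and -2.22 at E8.5, -3.58, -1.52 and -2.42 at E9.5, and -5.27 and -3.08 at E11.5. Again the gated cells of E11.5 alone were not above background, and the gate was lower by 4.17-fold at E9.5 and at least 4.12-fold at E11.5. Levels of Bmp3, which can act against other Bmp ligands, were -4.41 and -5.37 at E8.5, -6.20, -2.26 and -2.34 at E9.5, and -5.22 and -3.43 at E11.5. It was above background only in the non-gated cells of E9.5 and E11.5 and in the GFP-negative cells of E9.5, and lay at least 5.09-fold and 3.22-fold lower in the gates of E9.5 and E11.5.

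Tgfb2 and Tgfb3, ligands of the Tgf-beta branch, were both lower in the E11.5 gate. The levels of Tgfb2 were 1.22 and -0.98 at E8.5, 0.09, 0.63 and -0.48 at E9.5, and -0.55 and 1.58 at E11.5, so that it was highest in the non-gated cells of E11.5 and lowest in the GFP-negative cells of E8.5. It stood 4.6-fold higher in GFP-positive cells at E8.5 and 4.39-fold lower in the gate at E11.5, and the second probe of the gene gave 2.34 and -1.21 on the log2 scale for these differences, against 2.20 and -2.13. For the E9.5 gate against non-gated cells that probe gave -1.53 where the brighter one gave -0.54. Tgfb3 was read by 10 spots on each array, with levels of -2.20 and -1.55 at E8.5, 0.27, -0.76 and -0.52 at E9.5, and 0.17 and 1.33 at E11.5. Its spot standard deviations ran from 0.04 to 0.06 at E9.5 and E11.5 and were 0.34 and 0.19 at E8.5. At E9.5 the gate was 2.05-fold higher, at E11.5 2.23-fold lower. Bmp6 was 3.32-fold lower in the E11.5 gate and 2.4-fold lower in non-gated than in GFP-negative cells of E9.5.

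Nodal, the ligand that patterns the early body axes, was 2.86-fold higher in GFP-positive cells of E8.5, at a level of -1.50 there and between -3.41 and -2.75 on the other arrays. Gdf10 was above background only in GFP-negative cells of E9.5, at -2.91. Bmp10, Gdf3, Gdf5, Gdf7, Gdf11 and Inhbb stayed within 2-fold in the 5 comparisons within a stage, on the brightest probe of each, and the first 4 of them had ranges over all arrays of 0.68, 0.36, 0.50 and 0.49. A dimmer probe of Gdf5 differed: it was above background on all arrays and gave -1.63 for the gate at E11.5, where the brighter one gave -0.17, so the level of Gdf5 there is uncertain.

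**Figure D3:**
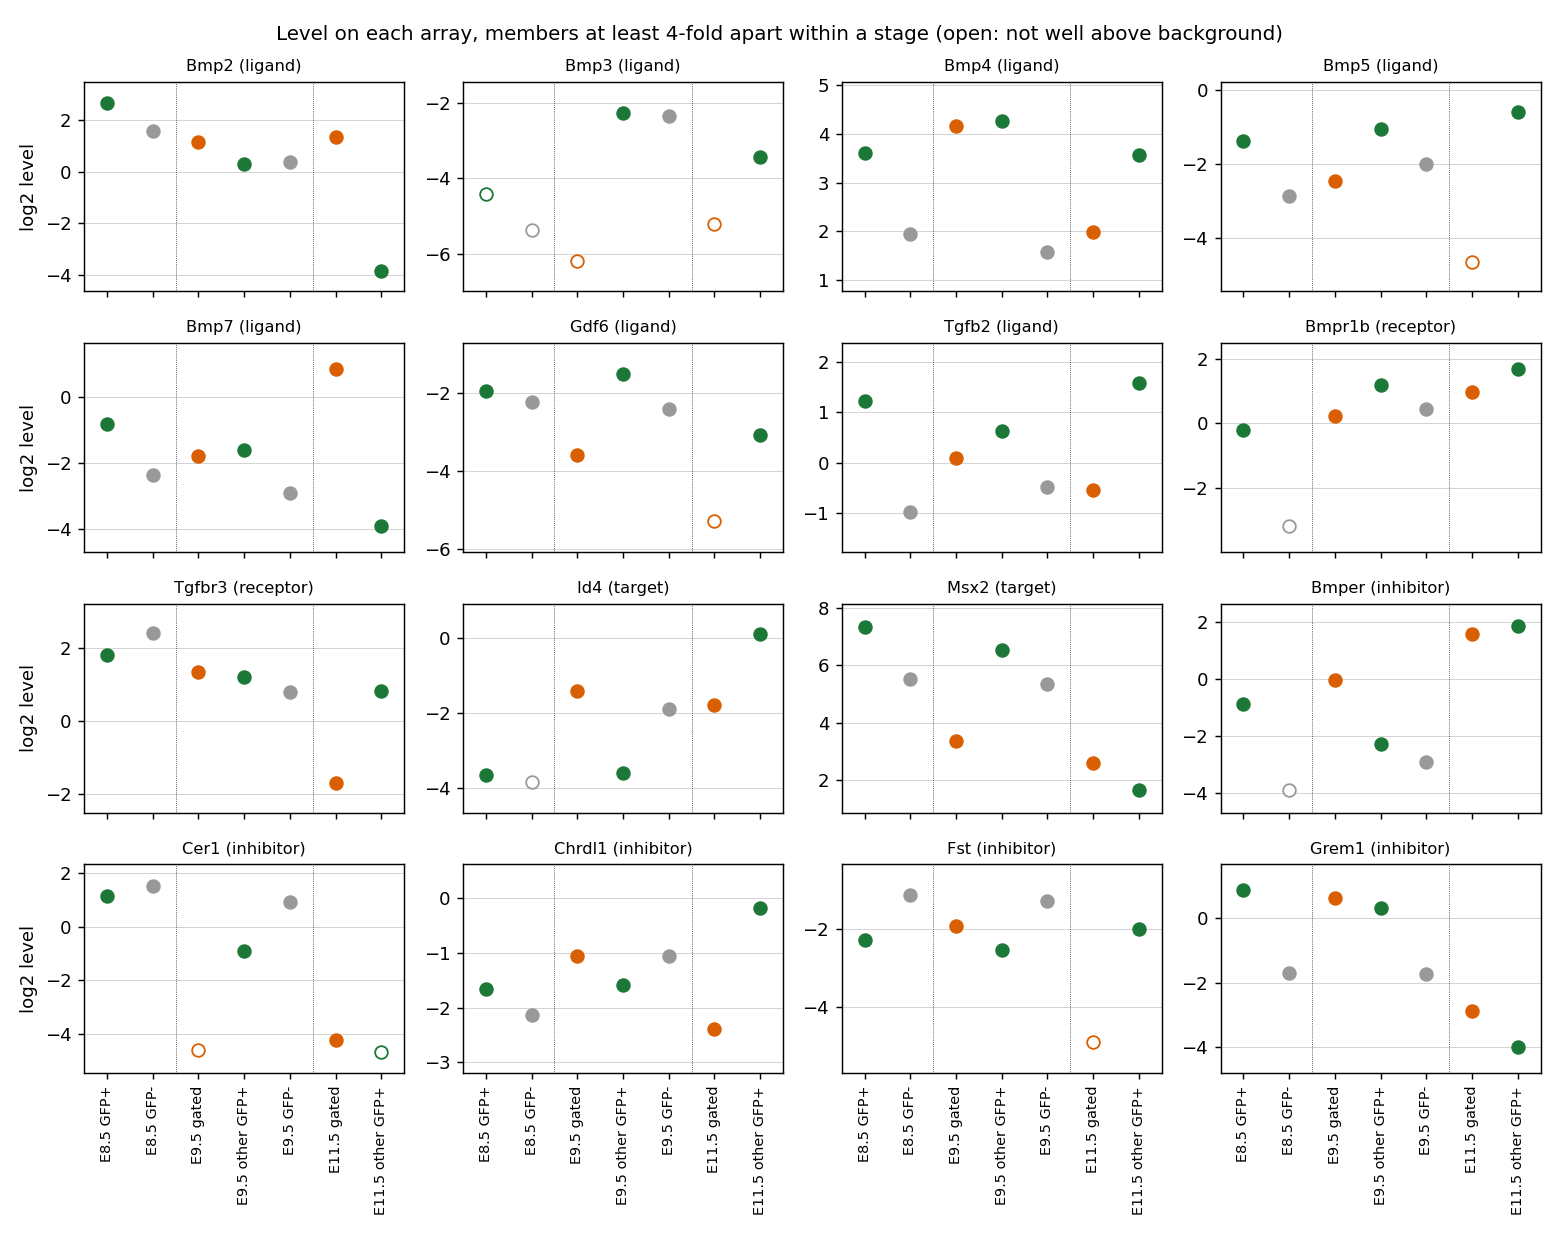
Log2 level on each of the 7 arrays for the 16 genes at least 4-fold apart within a stage, coloured by population (green, GFP-positive or other GFP-positive; orange, gated; grey, GFP-negative), with open circles where the gene was not well above background. Bmp2 and Bmp7 are high in the gate and low in the other cells of E11.5, with levels of 1.34 against -3.82 and 0.83 against -3.90, and Bmp5 shows the opposite.

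Of the 10 receptors, 5 reached 2-fold in a comparison within a stage and 5 did not. Bmpr1b, a type I receptor for Bmp ligands, had levels of -0.21 and -3.19 at E8.5, 0.22, 1.19 and 0.45 at E9.5, and 0.97 and 1.70 at E11.5. It was not above background in GFP-negative cells of E8.5, at least 7.87-fold below the GFP-positive cells, and stood highest in the non-gated cells of E9.5 and E11.5. The second probe of the gene was below background on both E8.5 arrays and gives no value there, and for the gate at E11.5 it gave -1.54 where the brighter one gave -0.72. Tgfbr3, or betaglycan, a co-receptor that presents Tgfb2, had levels of 1.81 and 2.43 at E8.5, 1.34, 1.22 and 0.79 at E9.5, and -1.71 and 0.83 at E11.5. The gated cells of E11.5 stood apart below the other 6 arrays, which lay between 0.79 and 2.43, and were 5.8-fold below the non-gated cells. Acvr1, a type I receptor, was 3.01-fold lower in the E11.5 gate on its brighter probe, at -1.59 on the log2 scale, but its other probe gave 0.13, so this difference is uncertain. Acvr1 was also 2.1-fold higher in GFP-positive cells of E8.5, where its other probe gave 0.50. The type II receptor Acvr2b was 2.11-fold higher in the E11.5 gate and Tgfbr2 2.17-fold higher in non-gated than in GFP-negative cells of E9.5, where another probe of Tgfbr2 gave 0.40 against 1.12 on the log2 scale. For the gate at E11.5 that probe gave 0.88 and the brighter one -0.53. Bmpr1a, Bmpr2, Acvr1b, Acvr2a and Tgfbr1 stayed within 2-fold in all 5 comparisons within a stage.

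On the brightest probes, Smad9 alone of the Smads that receptors activate had a range over 4-fold, its lowest level not being above background. Its levels were -3.33 and -4.51 at E8.5, -4.42, -2.46 and -6.46 at E9.5, and -2.27 and -3.82 at E11.5, and it was above background on 4 arrays: GFP-positive cells of E8.5, non-gated cells of E9.5 and both populations of E11.5. The E9.5 gate was at least 3.89-fold below the non-gated cells, while the E11.5 gate was 2.94-fold above them. Smad1 was 2.34-fold higher in GFP-positive cells of E8.5 and 2.09-fold higher in the gate at E9.5. In the second of these, 2 other probes of Smad1 gave 0.37 and 0.79 against 1.06 on the log2 scale, and 1 of them gave 0.37 against 1.22 at E8.5 and -1.37 against 0.31 for the gate at E11.5. The brightest probes of Smad2, Smad3, Smad4 and Smad5 were above background on all arrays and stayed within 2-fold within a stage. A dimmer Smad3 probe gave -1.23 at E8.5, its GFP-positive side not being above background, and -1.15 for the E9.5 gate, where the brighter one gave 0.83 and 0.21, so these Smad3 differences are uncertain. This Smad3 probe had a range of 2.85 over the arrays, and a dimmer Smad1 probe had a range of 2.01. Of the inhibitory Smads, Smad6 was at least 2.82-fold lower in the E11.5 gate, and Smad7 was 2.86-fold higher in non-gated than in GFP-negative cells of E9.5.

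Of the 5 target genes, Id1, Id2, Id3 and Msx2 stood higher with GFP at E8.5, and Id4 had no fold there. Id proteins bind basic helix-loop-helix factors and keep them from DNA. In GFP-positive against GFP-negative cells of E8.5, Id1, Id2, Id3 and Msx2 stood higher by 2.64-fold, 3.09-fold, 2.86-fold and 3.57-fold. At E9.5, Id1 was 2.46-fold higher in non-gated cells and Id2 2.12-fold higher in gated cells, each against GFP-negative cells. Id1, Id2 and Id3 lay within 2-fold between the gate and the non-gated cells at both stages, with differences from -0.69 to 0.72. Of these genes, Id2 and Id3 are among those whose promoters are printed above, with different motifs.

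Msx2, a homeobox gene of limb, skull and tail mesenchyme, had levels of 7.35 and 5.51 at E8.5, 3.35, 6.55 and 5.35 at E9.5, and 2.61 and 1.67 at E11.5, from a probe on chromosome 13 from 53562318 to 53562377, minus strand. It was lowest in both populations of E11.5 and in the E9.5 gate, and at E9.5 the gate stood 9.18-fold below the non-gated cells and 3.98-fold below GFP-negative cells. Id4, whose promoter is the richest in G and C of those printed (75.6%), had levels of -3.65 and -3.84 at E8.5, -1.42, -3.59 and -1.90 at E9.5, and -1.79 and 0.11 at E11.5, from a probe on chromosome 13 from 48358668 to 48358727, plus strand. It was not above background in GFP-negative cells of E8.5. The E9.5 gate was 4.5-fold above the non-gated cells, and the E11.5 gate 3.73-fold below them, and of the 7 arrays the non-gated cells of E11.5 had the highest level.

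Among the inhibitors, Cer1 was not above background in the E9.5 gate. Cer1, or Cerberus, binds Nodal and Bmp ligands and is known from anterior endoderm and young somites. Its levels were 1.17 and 1.54 at E8.5, -4.62, -0.92 and 0.94 at E9.5, and -4.22 and -4.67 at E11.5, from a probe on chromosome 4 from 82527655 to 82527714, minus strand. It was high at E8.5 and in GFP-negative cells of E9.5, intermediate in the non-gated cells of E9.5, and not above background in the E9.5 gate, at least 12.9-fold and 46.8-fold below the non-gated and the GFP-negative cells. Markers of gut endoderm moved with it at E9.5: 5 of 8 were above background in the gate and 8 of 8 on each other array of that stage, with summed levels of 3.08 in the gate against 4.46 and 4.54. So did the node and notochord list, which shares Foxa2, Foxa1 and Shh with the endoderm list. Of its 6 markers, 2 were above background in the gate, against 5 in non-gated and 6 in GFP-negative cells. Its summed levels were -1.83 against 1.75 and 3.47. The gut endoderm list was not uniform. Foxa2, Foxa1 and Shh were not above background in the gate, Foxa2 at -4.16 against 0.91 and 3.11, while Sox17, which endothelium also expresses, was 4.36-fold higher in gated than in non-gated and 10.6-fold higher than in GFP-negative cells. Krt8 and Krt18 were lower than in non-gated cells by 2.65-fold and 2.95-fold but differed from GFP-negative cells by -0.08 and -0.10. The paraxial mesoderm list took a different course. Its 6 markers were above background on each array of E9.5, with summed levels of 5.81 in the gate against 4.51 and 5.35. In the gate, 5 of 6 were lower than in GFP-negative cells (median difference -1.43). Against non-gated cells, 1 was higher and 1 lower. The part of such cells in the result was not tested.

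Bmper, a secreted protein that binds Bmp ligands, showed the opposite order at E9.5. Its levels were -0.89 and -3.88 at E8.5, -0.03, -2.28 and -2.90 at E9.5, and 1.58 and 1.83 at E11.5, from a probe on chromosome 9 from 23289301 to 23289360, plus strand. It was not above background in GFP-negative cells of E8.5, stood 4.75-fold higher in the gate than in non-gated cells of E9.5, and was highest in both populations of E11.5, which differed by -0.24 on the log2 scale. Grem1, the Bmp antagonist of the ureteric bud's surroundings, had levels of 0.86 and -1.71 at E8.5, 0.62, 0.31 and -1.73 at E9.5, and -2.88 and -4.0 at E11.5. It was high in the 3 GFP-positive populations of E8.5 and E9.5, lower in both GFP-negative ones by 4.13-fold to 5.94-fold, and lowest at E11.5.

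Follistatin, which sequesters activins, and Chordin-like 1 were low in the gate of E11.5. The levels of Fst were -2.28 and -1.13 at E8.5, -1.91, -2.53 and -1.28 at E9.5, and -4.91 and -1.99 at E11.5. The gated cells of E11.5 were not above background, at least 7.57-fold below the other cells, and at E8.5 and E9.5 the GFP-negative cells were the highest. The levels of Chrdl1 were -1.67 and -2.14 at E8.5, -1.05, -1.58 and -1.06 at E9.5, and -2.40 and -0.18 at E11.5, and the gate of E11.5 was 4.64-fold below the other cells, the highest array. A dimmer probe of Chrdl1 gave -0.74 where this one gave -2.21, its gated side being at its bound, and the third probe was below background on both arrays. Lefty2, a Nodal inhibitor, was 3.37-fold higher in GFP-positive cells of E8.5, at 1.59, and lay between -0.17 and 0.56 elsewhere. Noggin (Nog), Chordin (Chrd) and Lefty1 stayed within 2-fold in every comparison within a stage.

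Gated and non-gated cells were compared at E9.5 and again at E11.5, on separate arrays. For 48 pathway genes and 21047 genes of the array a fold could be given at both stages. Bmp3, Bmp5 and Gdf6 were at least 2-fold lower at both (6.25%, against 1.93% of all genes), and no pathway gene was higher at both (1.37% of all genes). Within 2-fold at both stages were 26 (54.2%, against 73.3% of all genes). At E11.5 alone, 8 were lower (16.7%, against 6.27%) and 4 higher (8.33%, against 7.55%). At E9.5 alone, 2 were lower (4.17%, against 4.67%) and 2 higher (4.17%, against 2.78%). The remaining 3 changed sides, 2 from higher to lower (against 0.822% of all genes) and 1 from lower to higher (against 1.34%). Id4 and Tgfb3 went from higher to lower in the gate, and Smad9 from lower to higher. For the other 4 pathway genes no fold could be given at 1 or both stages. The difference between stages was not tested, and the tissue sampled differed between them as well.

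**Figure D4:**
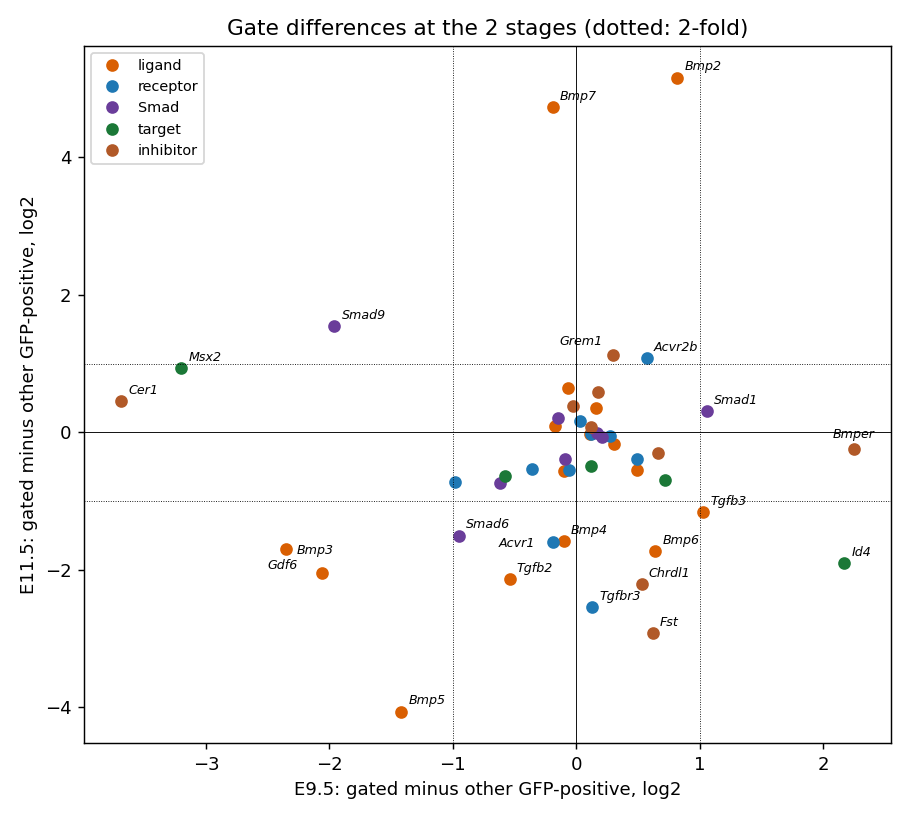
Log2 difference of gated minus non-gated cells at E9.5 (horizontal) and at E11.5 (vertical), with 1 point per pathway gene coloured by role and dotted lines at 2-fold. Bmp2 (0.82 and 5.16) and Bmp7 (-0.19 and 4.73) lie at the top, Bmp5 (-1.42 and -4.06) at the bottom left and Id4 (2.17 and -1.90) at the lower right.

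Across stages, gated cells of the metanephric mesenchyme at E11.5 were set against gated cells of the caudal embryo at E9.5. Among 47 measured genes, 3 stood at least 2-fold higher at E11.5 (6.38%, against 6.05% of all genes) and 9 lower (19.1%, against 11.9% of all genes). At 4-fold, 2 were higher (against 1.27% of all genes), Bmp7 by 6.19-fold and Smad9 by at least 4.45-fold, and 5 lower (against 2.99% of all genes). Grem1 was 11.3-fold lower, Tgfbr3 8.28-fold, Fst at least 8.01-fold, Bmp4 4.52-fold and Bmp5 at least 4.5-fold. In the non-gated cells, 4 of 49 genes were higher at E11.5 (8.16%, against 6.36% of all genes) and 8 lower (16.3%, against 22.1% of all genes). Without scaling, 10 of 49 were higher and 8 lower, against 1984 and 4014 of 23699 genes of the array. At 4-fold, 3 were higher (against 1.6% of all genes) and 5 lower (against 3.43% of all genes). Bmper was 17.2-fold higher, Id4 13-fold and Tgfb3 4.26-fold. Msx2 was 29.6-fold lower, Grem1 19.8-fold, Bmp2 17.5-fold, Cer1 at least 13.5-fold and Bmp7 4.89-fold. Beside these values in non-gated cells, 8 of 8 gut endoderm markers were lower at E11.5 (median difference -4.55), as were 5 of 6 of paraxial mesoderm, while 6 of 8 dissociation response genes (median 2.25) and 7 of 12 stromal markers were higher. In gated cells 8 of 10 endothelial markers (median -2.69) and 7 of 11 of stroma, including the sorting gene Pdgfra, were lower. Their part in the stage differences was not tested.

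A list of 50 further pathway genes, all of them on the array, gave the surroundings of these 52. At E8.5, 10 of 39 were at least 2-fold higher in GFP-positive cells (25.6%, against 7.03% of all genes) and 4 lower (10.3%, against 6.08%). Among them were the latent Tgf-beta binding protein Ltbp1, 4.61-fold higher, and Thbs1, which can activate latent Tgf-beta, 4.97-fold lower. Gdf9 and Bmp8b, ligands of the germ line, were lower by 4.16-fold and at least 4.72-fold. Between the gate and the non-gated cells, 0 of 45 were higher (against 5.14% of all genes) and 7 lower (15.6%, against 9.37%) at E9.5, Gdf9 at least 13.7-fold. At E11.5, 2 of 42 were higher (4.76%, against 10.5%), Amhr2, the receptor for anti-Müllerian hormone, by 5.6-fold and Inha by 2.61-fold. At that stage 7 were lower (16.7%, against 9.42%), among them Gdf9 by 7.94-fold, Gdf15 by 5.7-fold and Fstl1 by 5-fold. Against GFP-negative cells of E9.5, 3 of 43 were higher (6.98%, against 5.67%) and 6 lower (against 6.41%) in gated cells. In non-gated cells 10 of 46 were higher (21.7%, against 8.57%) and 2 lower (4.35%, against 5.17%), with Rgmb, a Bmp co-receptor, 5.61-fold lower.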

How the data were processed

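Total RNA of each of 7 sorted populations (10 ng, amplified before labelling per the labels) went onto an Agilent mouse array of its own, in a single colour (Cy3). The authors extracted the intensity of each spot in Agilent Feature Extraction (version 10.7.3.1 in the submitters' processing notes). Per the file headers, the processed signal is background-subtracted and detrended, with surrogate values for the dimmest spots and no scaling between arrays, and the array design uses mm9. The deposited value table held the same intensity for all 62976 spots of each array.

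From the log2 processed signal, that of the 75th percentile was subtracted, taken over the 59305 spots that were not controls. Spots flagged as outliers, 127 to 160 per array, were left out, and the spots of a probe were averaged. To count as well above background, a probe needed that mark on a share of 0.5 or more of its spots. Of 55681 probes, 26425 were named through RefSeq (GRCm38.p6) by accession, 8933 by the array files, and 20323 had no gene name. Pathway genes were matched by the name in the array files, and 17 had several probes. Where a gene had several, the probe of highest mean level stood for it. A gene was measured in a comparison if it stood well above background on either array. A difference counted from 2-fold, and genes at least 4-fold apart within a stage were given in full. Pathway members, lists and rules were chosen with earlier results of these data known. The pipeline from levels to counts was tested on simulated data. Python 3.11.15, numpy 2.4.6, pandas 2.3.3 and limma 3.58.1 (normexp, offset 50) were used. Alternatives were quantile normalization, no scaling, normexp, 2 other filters, the mean of all probes, a 4-fold threshold and another percentile. The number of arrays limits the precision. Whether a probe lies in coding or untranslated sequence was not analysed here.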

Additional observations from a re-analysis of the deposited data

Results flagged for a closer look

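The contrast between gated and non-gated cells ran in opposite directions at E9.5 and E11.5 for 3 pathway genes, each past 2-fold on both sides. The difference between the stages was not tested, since each stage had 1 array per population. Tgfb3 differed by 1.03 on the log2 scale at E9.5 and by -1.16 at E11.5. Smad9 differed by -1.96 at E9.5, where the gated side was at its bound, and by 1.55 at E11.5. Id4 differed by 2.17 at E9.5 and by -1.90 at E11.5. With normexp background correction the signs were the same, with values of 0.78 and -1.04 for Tgfb3, -0.53 and 0.64 for Smad9, and 0.92 and -1.30 for Id4.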

How the results depend on the processing

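All 84 named differences of single genes kept their sign under quantile normalization, no scaling, normexp, no filter, the mean of all probes and the other percentile. For several settings this could not have been otherwise. The 65 that remain among genes above background on both arrays keep their values, and without the filter a difference at a bound only grows. The 75th percentile signals, from 230.7 to 300.0, lie less than 2-fold apart, so leaving out scaling could not reverse a 2-fold difference. The mean of all probes changes only genes with several probes. Fewer stayed past 2-fold: 51 of 84 with normexp, 77 without scaling, 79 with the mean of all probes, 80 with the other percentile and 81 with quantile normalization. Counts of genes at least 2-fold apart moved more. Those over all genes moved too: of 20099 at E8.5, 1413 were higher in the main setting and 598 with normexp. The counts below are therefore not to be read against the main shares, and counts over all genes in the same setting follow them. With normexp, the lower count was 0 at E8.5, against 509 of 20099 genes of the array. It gave 2 higher and 2 lower for gated against non-gated cells of E9.5, 2 lower for the gate against GFP-negative cells, and 5 higher and 1 lower for non-gated against GFP-negative cells. Counts over all genes were, in that order, 339 and 316 of 23599, 467 of 21481, and 284 and 383 of 23725. It gave 3 higher and 8 lower for the E11.5 gate, and 3 lower for gated and 5 lower for non-gated cells across stages. Over all genes these were 737 and 820 of 21699, 560 of 21557 and 1005 of 23699. At 4-fold the counts were 4 higher and 0 lower at E8.5, 2 higher in gated against non-gated cells of E9.5, 3 higher and 2 lower against GFP-negative cells, and 2 higher and 0 lower for non-gated against GFP-negative cells. All genes gave, in that order, 179 and 489 of 20099, 198 of 23599, 254 and 401 of 21481, and 189 and 300 of 23725. They were 2 higher and 6 lower in the E11.5 gate, and 5 lower in each population across stages. All genes gave 467 and 702 of 21699 for that gate, and 644 of 21557 lower in gated and 813 of 23699 in non-gated cells. Over genes above background on both arrays, 3 were lower in gated against non-gated cells of E9.5, 2 against GFP-negative cells, and 8 in the E11.5 gate. Of all genes so filtered, 978 of 19731, 864 of 19201 and 1349 of 18993 were lower in these comparisons. Without scaling, 3 were higher in gated against GFP-negative cells of E9.5, 3 in the E11.5 gate and 10 in non-gated cells at E11.5 against E9.5. Over all genes these were 834 of 21481, 1488 of 21699 and 1984 of 23699. Quantile normalization gave 3 higher in the E11.5 gate, and the other percentile, chosen after the data were examined, 3 there and 8 in non-gated cells across stages. Over all genes these were 1688 of 21699, 1665 of 21699 and 1866 of 23699. The cause was not tested. Dim probes limit what can be compared: 38 of 52 genes were well above background on all arrays, against 15444 of the 27113 named genes. No paired analysis was possible because each population had 1 array.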

Other observations

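Some probes of the pathway hardly varied, and another probe of the same gene can tell a different story. The brighter Gdf3 probe lay between -1.13 and -0.76 on all 7 arrays, whereas its other probe was well above background only in the non-gated cells of E9.5. The brighter Chrd probe had a range of 0.51, and the brighter Gdf5 and Gdf7 probes of 0.50 and 0.49. The other Gdf5 probe ranged from -1.05 to 0.99 and was highest in the non-gated cells of E11.5.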
